A study of Mus musculus with 6 samples.

Results

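The genes described here are 8 adhesion molecules of the synovial fibroblast (SF) surface, namely the leukocyte adhesion receptors Icam1, Vcam1 and Alcam, the cadherins Cdh2 and Cdh11, the immunoglobulin-family molecules Ncam1 and Mcam, and podoplanin (Pdpn). They were chosen by gene name from a table of 49548 mouse genes (22775 of them above 0 in some library), and each name matched 1 gene. SFs are the connective tissue cells of the joint lining. They were isolated from the ankle joints of 8-week-old hTNFtg mice on a CBA C57BL/6J background, which carry a human TNF transgene and develop inflammatory arthritis. All 6 libraries, the controls included, come from this genotype, so no wild-type cells enter the comparison. The promoter of the transgene and the passage at which RNA was taken are not given in the sources used here, and CD45+ blood cells were depleted at passage 1. The labels give 3 untreated libraries and 3 libraries of cells exposed to 500 μM amisulpride for 48 hours. Amisulpride is a drug used in psychiatry, an antagonist of some receptors for dopamine and serotonin, and the comparison asked how it changed arthritogenic SFs. The study's methods name vehicle for the controls where the labels give no treatment, and the controls are called untreated here.

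Leukocytes leave the blood and stay in tissue by binding immunoglobulin-family receptors, and ICAM1 and VCAM1, the ligands of the leukocyte integrins LFA-1 and VLA-4, are classical targets of TNF and NF-kB signaling. SFs hold to each other through cadherins, calcium-dependent molecules that bind their own kind on the neighboring cell and are tied to actin by catenins, and cadherin-11 is the cadherin for which the joint lining is best known. Podoplanin is a glycoprotein of SFs in the lining and in the sublining beneath it. It links to the cytoskeleton through ezrin, radixin and moesin, and it is known to be abundant in inflamed synovium.

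Only mRNA was measured, by sequencing the 3′ ends of transcripts (QuantSeq), so surface protein and adhesion itself are outside these data. Values are normalised counts, taken here to be the authors' read counts per gene scaled by 1 factor per library and rounded. The library totals ran from 3832980 to 4504242 normalised counts, and 16851 to 18364 genes were above 0 per library. The steps between low values put the depth at approximately 2520000 to 4710000 reads, with the value of untreated replicate 1 uncertain, and amisulpride replicates 3 and 2 were the shallowest at approximately 2520000 and 2940000 reads. Amisulpride replicate 3 also stood apart in a principal component analysis, at 73.9 on the first component (37.1% of the variance) against -38.2 to 10.4 in the other libraries. This component separated the groups as well, with untreated libraries at -38.2, -20.9 and -18.1 and amisulpride replicates 1 and 2 at -7.03 and 10.4. The 8 genes, the list counts and the genes named past a threshold were also tested without amisulpride replicate 3. The labelled cell type was checked against its markers. The fibroblast collagens Col1a1 and Col1a2 ranged from 10814 to 35599 and from 8485 to 22596 normalised counts, and the 14 fibroblast markers summed to 75216 to 96860 untreated and 71836 to 119262 with amisulpride. Of these 14, S100a4 alone passed the study thresholds. It had 29324, 24374 and 25274 untreated and 13948, 10468 and 8035 with amisulpride, without overlap (log2 fold change -1.31 ± 0.32, SE). Its adjusted p from limma was 0.117, 0.0459 with the block and 0.120 without amisulpride replicate 3. The endothelial genes Pecam1 (0 to 3) and Cdh5 (0 in all 6 libraries), the lymphatic gene Lyve1 (0 in all 6, with Prox1 at 0 to 9), the muscle precursor genes Pax7 and Myf5 (0 in all 6) and the epithelial genes Epcam (0 to 1) and Cdh1 (1 to 10) were at or near 0. The Schwann cell gene Sox10 (5 to 13) and the leukocyte genes Ptprc, which encodes CD45 (5 to 38), and Cd68 (119 to 256) were detected in every library, as was the macrophage lysozyme Lyz2 at 1394 to 3287 normalised counts.

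Of the 8 genes, Mcam alone passed the thresholds the study used, a log2 fold change of at least 1 in either direction with an unadjusted p under 0.05. Mcam was 2.58-fold lower with amisulpride, in all 3 replicate numbers and without overlap between the groups. The study thresholds called 1 of the 8 genes lower and 0 higher, against 3.01% lower and 2.69% higher among all 12614 genes tested (at least 10 normalised counts in at least 3 of the 6 libraries). After Benjamini-Hochberg adjustment over all genes tested, limma gave 0 of 8 with an adjusted p under 0.05 and 1 of 8 with an unadjusted p under 0.05, beside 0.285% and 10.9% of all genes tested. With the replicate number as a block, 1 of 8 passed after adjustment (Mcam), beside 2.08% of all genes. The untreated and amisulpride values did not overlap for 1 of 8 genes, a share near that of all genes (16.5%). Icam1, Pdpn and Mcam differed in the same direction in all 3 pairs of libraries with the same replicate number, which is 3 of 8 beside 34.7% of all genes. The median log2 fold change of the 8 genes was 0.18, and that of all genes tested was 0.0016. The p-values measure the spread between these 6 libraries, which the study describes as biological replicates.

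**Figure D1:**
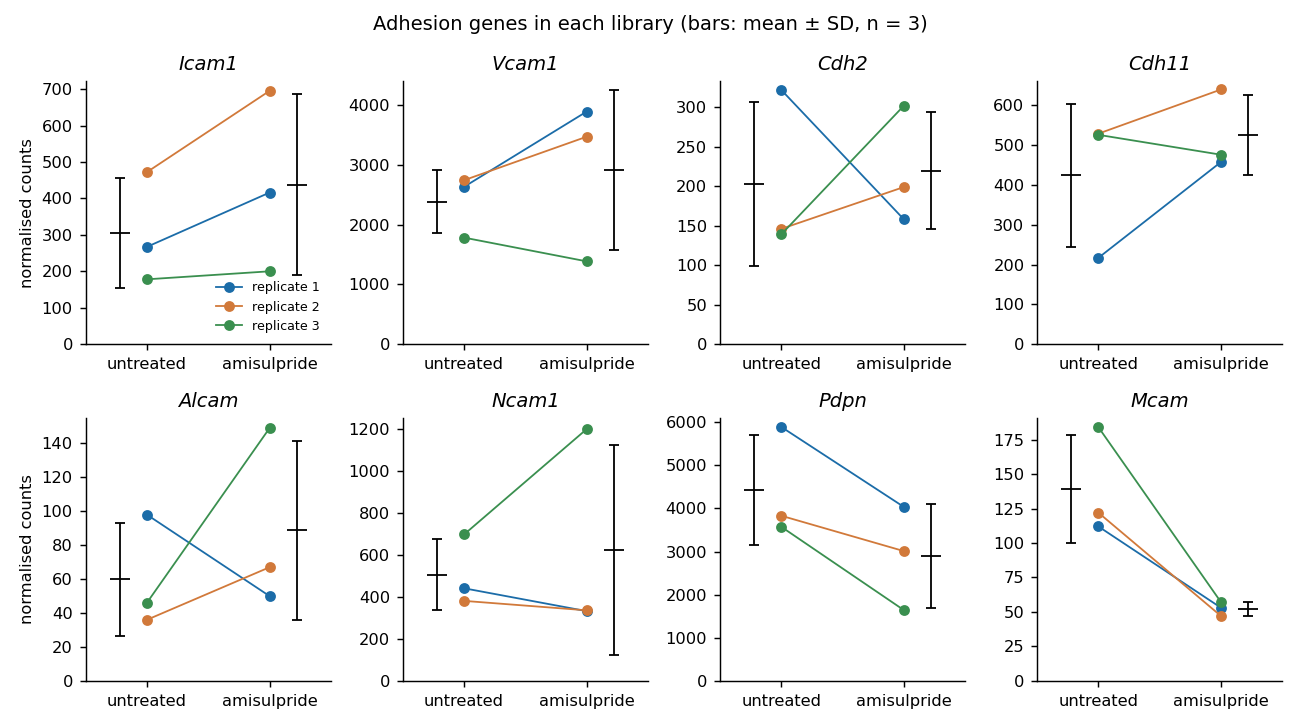
Normalised counts (linear axes from 0) of the 8 genes in each of the 6 libraries. Points of the same replicate number are joined by a line, and the bars to the side give the mean ± SD (n = 3). Mcam fell to 47 to 57 normalised counts in the amisulpride libraries from 112 to 184, while the groups overlap in the other 7 panels. Lines cross in the panels of Vcam1, Cdh2, Alcam, Ncam1 and Mcam.

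Promoter stretches of Icam1, Pdpn and Mcam are shown because the direction of these 3 genes was shared by all replicate numbers. RefSeq promoters (build GRCm38.p6) were matched for 4 of the 8 genes. The stretches lie immediately ahead of the RefSeq start of Icam1 (chr9:21015690-21015939, + strand, 250 bases) and of Pdpn (chr4:143299565-143299814, - strand, 250 bases). For Mcam, 189 bases that lie inside the annotated gene were left out, leaving 61 bases (chr9:44134408-44134468, + strand). Capitals mark every match, on either strand, to an NF-kB motif (GGNNNTTCC), a GC box (GGGCGG), an AP-1 motif (TGANTCA) or a TATA box (TATAAA), and the sequences read 5′ to 3′ on the gene's strand.
Icam1: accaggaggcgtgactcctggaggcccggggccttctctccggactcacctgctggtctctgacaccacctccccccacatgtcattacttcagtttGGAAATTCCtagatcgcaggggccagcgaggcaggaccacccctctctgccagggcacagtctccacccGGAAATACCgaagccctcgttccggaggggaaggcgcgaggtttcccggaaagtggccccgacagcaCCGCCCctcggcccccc
Pdpn: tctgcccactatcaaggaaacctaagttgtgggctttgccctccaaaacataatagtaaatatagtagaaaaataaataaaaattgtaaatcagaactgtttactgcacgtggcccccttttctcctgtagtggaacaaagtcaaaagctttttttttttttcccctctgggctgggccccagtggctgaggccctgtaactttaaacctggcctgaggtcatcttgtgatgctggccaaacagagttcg
Mcam: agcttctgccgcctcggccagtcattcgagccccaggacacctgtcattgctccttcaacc

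The Icam1 stretch held 2 matches to the NF-kB motif, GGAAATTCC and GGAAATACC, and 1 to the GC box, as CCGCCC, and none of these overlapped. Of 32851 RefSeq promoters, 15.7% held the NF-kB motif within the same 250 bases, 32.7% the GC box, 6.75% the AP-1 motif and 12.4% the TATA box. The Pdpn stretch held 0 of the 4 motifs. The shorter Mcam stretch also held 0, and in windows of 61 bases the shares of all promoters were 3.14% for NF-kB, 6.14% for the GC box, 1.55% for AP-1 and 3.28% for the TATA box. GC content was 65.2% for Icam1 and 43.2% for Pdpn, against a median of 52.4% over all promoters, and 60.7% for Mcam against 49.2%. A match describes these letters only, and binding was not measured.

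Icam1 (ENSMUSG00000037405, chr9:21015985-21028817, + strand), the receptor for LFA-1 and Mac-1 on leukocytes, had 267, 472 and 178 normalised counts in untreated replicates 1 to 3 and 416, 695 and 200 in amisulpride replicates 1 to 3. Replicate 2 was the highest and replicate 3 the lowest library of both groups, so that the groups overlapped although every treated library was above the untreated one of its number. The means were 306 ± 151 and 437 ± 248 (SD, n = 3 each). The log2 fold change was 0.45 ± 0.45 (SE, with a 95% confidence interval from -0.53 to 1.44), with an adjusted p of 0.756 from limma. Within replicate numbers the log2 differences were 0.64, 0.56 and 0.17. Without amisulpride replicate 3 the log2 fold change was 0.93 (adjusted p = 0.316 from limma), and without amisulpride replicate 2 it was 0.03.

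Vcam1 (ENSMUSG00000027962, chr3:116109949-116129688, - strand), the receptor for the integrin VLA-4 and a marker of fibroblasts activated by TNF, had 2635, 2746 and 1785 normalised counts in the untreated libraries and 3896, 3475 and 1387 with amisulpride. Replicates 1 and 2 were higher with amisulpride and replicate 3 was lower, and amisulpride replicate 3 was the lowest of the 6 libraries. The means were 2389 ± 526 and 2919 ± 1344 (SD, n = 3 each), and the log2 fold change was 0.18 ± 0.38 (SE, 95% interval -0.66 to 1.02, adjusted p = 0.892 from limma). Without amisulpride replicate 3 it was 0.65 (adjusted p = 0.332), and it was -0.10 without amisulpride replicate 1. The direction of Vcam1 thus rested on single libraries.

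Alcam (ENSMUSG00000022636, chr16:52248996-52454074, - strand), which binds CD6 on T cells as well as other ALCAM molecules, had 98, 36 and 46 normalised counts untreated and 50, 67 and 149 with amisulpride. The treated library was lower in replicate 1 and higher in replicates 2 and 3, and amisulpride replicate 3 was the highest of all. The means were 60.0 ± 33.3 and 88.7 ± 52.9 (SD, n = 3 each), and the log2 fold change was 0.53 ± 0.46 (SE, 95% interval -0.48 to 1.54, adjusted p = 0.724 from limma). Without amisulpride replicate 3 it was 0.08. Alcam also had the largest spread of the 8 genes over the libraries, its highest value being 4.14 times its lowest.

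None of these 3 leukocyte adhesion receptors passed a threshold, and the upper limits of their intervals lay between 1.02 and 1.54 on the log2 scale. Their partners on leukocytes were mostly too low to test. Of the 12 genes listed as counter-receptors and other ligands, 5 were tested, 0 of these passed the study thresholds in either direction and the median log2 fold change was -0.01. Without a filter 1 passed downward, Spn, with 9, 3 and 11 normalised counts untreated and 0, 1 and 2 with amisulpride (adjusted p = 0.345 from limma). Itgal, the α chain of LFA-1, ranged from 1 to 14 normalised counts, Itga4, the α chain of VLA-4, from 3 to 16, and Cd6 from 0 to 1. Itgb2, the β chain that LFA-1 and Mac-1 share, had 37, 22 and 37 normalised counts untreated and 34, 29 and 30 with amisulpride (log2 fold change -0.01 ± 0.36, SE). The summed macrophage and leukocyte markers (14 genes, of which Cd3e and Cd79a were at 0 in all libraries) covered 2322 to 4119 normalised counts untreated and 2342 to 4192 with amisulpride, so the ranges overlapped, and Lyz2 made up most of each sum. Of the 11 markers tested, 2 passed the study thresholds downward and 0 upward, beside 3.01% and 2.69% of all genes tested. Of the 11, 6 lay above and 5 below 0, with a median log2 fold change of 0.05. Cd14 had 121, 69 and 76 untreated and 47, 25 and 13 with amisulpride (log2 fold change -1.75 ± 0.44, SE). Its adjusted p from limma was 0.144, 0.0120 with the block and 0.133 without amisulpride replicate 3. Csf1r, which overlapped, had 114, 93 and 76 untreated and 41, 23 and 100 with amisulpride (-1.01 ± 0.46, SE). The adjusted p of Csf1r from limma was 0.456, 0.220 with the block and 0.0567 without amisulpride replicate 3. C1qc did not pass, with 95, 34 and 44 untreated and 127, 67 and 125 with amisulpride (0.95 ± 0.41, SE). C1qb did not pass either, with 44, 35 and 38 untreated and 53, 50 and 109 with amisulpride, without overlap (0.75 ± 0.36, SE). Adgre1 and Aif1 also lay above 0 without passing (0.83 ± 0.43 and 0.70 ± 0.59, SE). The part of macrophages and other leukocytes in the values of the receptors was not tested. In these bulk libraries fewer cells of a type and less RNA per cell cannot be told apart.

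Icam1 and Vcam1 were compared with a list of 12 NF-kB response genes, all of which were tested. Of these, 0 passed the study thresholds, 3 lay above and 9 below a log2 fold change of 0, and the median was -0.21. The count past the thresholds was 2 lower without amisulpride replicate 1 (Nfkbie and Bcl3), and 1 lower without amisulpride replicate 2 (Traf1) or untreated replicate 2 (Nfkbie). Nfkbia, the inhibitor that NF-kB itself induces, had 2162, 2025 and 1566 normalised counts untreated and 2096, 1401 and 655 with amisulpride (log2 fold change -0.61 ± 0.38, SE, adjusted p = 0.599 from limma), with the lowest value in amisulpride replicate 3, without which the log2 fold change was -0.15. The groups did not overlap for 2 of the 12, near the 16.5% of all genes, namely Nfkbie and Bcl3, which are named here after their values were seen. Nfkbie, another inhibitor of NF-kB, had 157, 91 and 102 normalised counts untreated and 76, 66 and 45 with amisulpride (log2 fold change -0.89 ± 0.32, SE, adjusted p = 0.311). Bcl3 had 126, 175 and 115 untreated and 100, 87 and 50 with amisulpride (log2 fold change -0.84 ± 0.32, SE, adjusted p = 0.355), and its log2 fold change was -0.54 without amisulpride replicate 3.

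Among the cadherins, Cdh11 (ENSMUSG00000031673, chr8:102632095-102785642, - strand), the cadherin of the synovial lining, had 217, 529 and 526 normalised counts untreated and 458, 640 and 476 with amisulpride. Untreated replicate 1 was less than the other 5 libraries, which lay between 458 and 640, and the groups overlapped. The means were 424 ± 179 and 525 ± 100 (SD, n = 3 each), and the log2 fold change was 0.40 ± 0.35 (SE, 95% interval -0.36 to 1.16, adjusted p = 0.724 from limma). Without untreated replicate 1 it was -0.02, so the positive sign rested on that library.

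Cdh2 (ENSMUSG00000024304, chr18:16588877-16809246, - strand), N-cadherin, which mesenchymal cells use for contact among themselves, had 322, 146 and 139 normalised counts untreated and 158, 199 and 302 with amisulpride. The highest library of each group was of a different number, replicate 1 untreated and replicate 3 with amisulpride. Within replicate numbers the log2 differences were -1.02, 0.44 and 1.11. The means were 202 ± 104 and 220 ± 74.2 (SD, n = 3 each), and the log2 fold change was 0.18 ± 0.36 (SE, 95% interval -0.62 to 0.98, adjusted p = 0.887 from limma). It was -0.08 without amisulpride replicate 3.

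The 27 other cadherins and protocadherins were mostly too low to test. A total of 8 were tested, 0 passed the study thresholds in either direction, 4 lay above and 4 below 0, and the median log2 fold change was 0.02. Without amisulpride replicate 2, 1 passed upward (Cdh17). The giant cadherin Fat1 had 572, 951 and 1129 normalised counts untreated and 910, 826 and 1113 with amisulpride (log2 fold change 0.15 ± 0.29, SE), and the groups overlapped. Chosen after their values were seen, Pcdh7 and Dchs1 did not overlap between the groups. Pcdh7, a protocadherin, had 85, 96 and 88 normalised counts untreated and 56, 37 and 57 with amisulpride (log2 fold change -0.85 ± 0.29, SE, adjusted p = 0.281 from limma). Dchs1, a cadherin that binds FAT4, had 6, 11 and 13 untreated and was at 0 in all 3 amisulpride libraries. It was too low to be tested in the filtered table, and without a filter limma gave it an adjusted p of 0.0488. In that fit 3 genes of the list passed the study thresholds downward (Dchs1, Cdh15 and Dsc2), as did 692 of all 22775 genes. Cdh15 had 3, 1 and 2 normalised counts untreated and Dsc2 had 1, 1 and 3, near the level of 3 reads. Both were at 0 with amisulpride (adjusted p = 0.335 and 0.441 from limma).

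The catenins and adherens junction partners that anchor cadherins to actin numbered 20, of which 17 were tested. Of these, 1 passed the study thresholds upward and 0 downward, with 6 above and 11 below 0 and a median log2 fold change of -0.12. The core catenins did not pass. Ctnnb1 (β-catenin) had 2844, 3426 and 3900 normalised counts untreated and 4059, 3764 and 3976 with amisulpride (log2 fold change 0.23 ± 0.25, SE), and Ctnna1 (α-catenin) had a log2 fold change of 0.12 ± 0.29 (SE). Ctnnd1 (p120 catenin), which stabilizes cadherins at the membrane, had 2959, 3804 and 3760 untreated and 4311, 3026 and 6893 with amisulpride (log2 fold change 0.36 ± 0.32, SE), the high value being that of amisulpride replicate 3. The gene that passed was Arvcf, a relative of p120 catenin, with 12, 6 and 4 normalised counts untreated and 19, 28 and 50 with amisulpride. Its log2 fold change was 2.01 ± 0.54 (SE), with an adjusted p of 0.173 from limma. Its groups did not overlap, but it reached the filter of 10 in 1 untreated library only and through the 3 treated ones, and it was not tested with a filter of 30. Vasp, an actin-binding protein of junctions and focal contacts named here after its values were seen, also did not overlap, with 356, 427 and 489 untreated and 339, 335 and 224 with amisulpride (log2 fold change -0.51 ± 0.26, SE, adjusted p = 0.516).

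Ncam1 (ENSMUSG00000039542, chr9:49502136-49798925, - strand), the neural cell adhesion molecule, had 441, 381 and 697 normalised counts untreated and 332, 336 and 1199 with amisulpride. Replicate 3 was the highest library of each group, and amisulpride replicate 3 was the highest of all 6, while replicates 1 and 2 were lower with amisulpride. The means were 506 ± 168 and 622 ± 499 (SD, n = 3 each), and the log2 fold change was 0.06 ± 0.45 (SE, 95% interval -0.93 to 1.06, adjusted p = 0.972 from limma). Without amisulpride replicate 3 it was -0.55. The direction of Ncam1 therefore depended on that library. Sox10, a marker of Schwann cells, which also express Ncam1, had 7, 5 and 8 normalised counts untreated and 7, 8 and 13 with amisulpride. The part of such cells in the Ncam1 values was not tested.

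Mcam (ENSMUSG00000032135, chr9:44134469-44142727, + strand), known as CD146, a receptor of perivascular and endothelial cells that is also found on activated fibroblasts, had 112, 122 and 184 normalised counts untreated and 53, 47 and 57 with amisulpride. All 3 treated libraries were lower than every untreated one, and the treated libraries lay within 10 normalised counts of each other. The means were 139 ± 39.0 and 52.3 ± 5.03 (SD, n = 3 each), a log2 fold change of -1.37 ± 0.29 (SE, 95% interval -2.00 to -0.73). Mcam had a p of 0.000575 and an adjusted p of 0.0764 from limma, rank 93 of 12614 by p. With the replicate number as a block the adjusted p was 0.0191, and within replicate numbers the log2 differences were -1.07, -1.36 and -1.67. The values correspond to approximately 112, 116 and 221 reads untreated and 59, 35 and 32 with amisulpride, so that counting error is not small in the treated libraries. The 112 reads of untreated replicate 1 are uncertain, as is the depth of that library.

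Because amisulpride replicates 2 and 3 were shallow, Mcam was examined without single libraries. Its log2 fold change ran from -1.50 to -1.15 over the fits that left out 1 library, and the study thresholds were passed in each. Without amisulpride replicate 3 it was -1.43 with an adjusted p of 0.0490 from limma. When any other single library was left out, the adjusted p from limma lay between 0.151 and 0.391. Markers of the perivascular and endothelial cells that are known for Mcam moved with it in part. The summed endothelial markers covered 78 to 98 normalised counts untreated and 27 to 67 with amisulpride, with 7 of the 12 genes at or under the level of 3 reads in every library. Cdh5, Tie1 and Cldn5 were at 0 throughout, Pecam1 had 3, 0 and 0 untreated and 0 with amisulpride, and Egfl7 made up most of the sum with 66, 84 and 78 untreated and 50, 59 and 25 with amisulpride (log2 fold change -0.83 ± 0.36, SE, adjusted p = 0.424). The endothelial gene Emcn was at 10 in amisulpride replicate 1 and at 0 in the other libraries. The lymphatic markers summed to 55 to 81 normalised counts untreated and to 32 to 53 with amisulpride over 4 genes, mostly from Flt4. Lyve1 and Ccl21a were at 0 in every library. Prox1 went the other way, with 0, 2 and 7 untreated and 8, 5 and 9 with amisulpride.

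The pericyte and smooth muscle markers summed to 5304 to 9640 normalised counts untreated and to 1427 to 4833 with amisulpride over 10 genes. Most of this sum was Acta2, the smooth muscle actin that activated fibroblasts also express, which had 6413, 5030 and 9384 untreated and 2714, 1253 and 4586 with amisulpride (log2 fold change -1.43 ± 0.43, SE, adjusted p = 0.225, 0.0142 with the block and 0.0294 without amisulpride replicate 3, from limma). The pericyte genes Rgs5 (12, 9 and 8 untreated and 7, 8 and 2 with amisulpride) and Kcnj8 (0 to 1) were low, and Higd1b was at 0 in every library. Cspg4 and Notch3, also known from pericytes, had log2 fold changes of 0.21 ± 0.40 and -0.08 ± 0.44 (SE). The part of these cells in the Mcam difference was not tested.

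**Figure D2:**
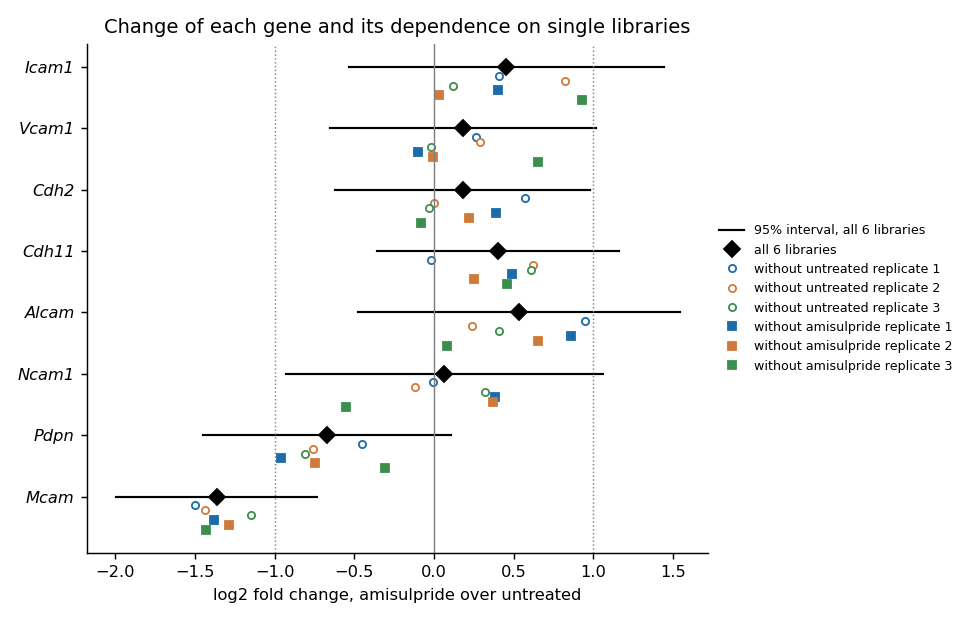
Log2 fold change of amisulpride over untreated for the 8 genes (horizontal axis). Diamonds with lines give the value from all 6 libraries with its 95% confidence interval, small circles and squares the value without 1 untreated or 1 amisulpride library, and dotted lines the study's threshold of 1 in either direction. Mcam stays between -1.50 and -1.15, Pdpn between -0.96 and -0.31, and Vcam1, Cdh2, Cdh11 and Ncam1 cross 0.

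The list of 29 other immunoglobulin-family adhesion molecules gave 16 tested genes, of which 0 passed the study thresholds in either direction. Of the 16, 9 lay above and 7 below 0, with a median log2 fold change of 0.04. One call downward appeared with the replicate block and without amisulpride replicate 2 (F11r) and without amisulpride replicate 1 (L1cam), and one upward without amisulpride replicate 3 (Chl1). Thy1, the GPI-anchored molecule that marks sublining fibroblasts, had 405, 838 and 605 normalised counts untreated and 480, 838 and 796 with amisulpride (log2 fold change 0.21 ± 0.32, SE), and the groups overlapped. Nectin2, a junctional molecule chosen after its values were seen, was the only tested gene of this list without overlap, with 417, 392 and 433 untreated and 344, 248 and 290 with amisulpride (log2 fold change -0.50 ± 0.24, SE, adjusted p = 0.474 from limma). The endothelial relatives Pecam1, Icam2 and Esam had at most 3 normalised counts in any library.

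Pdpn (ENSMUSG00000028583, chr4:143267431-143299564, - strand) had 5891, 3831 and 3575 normalised counts untreated and 4034, 3010 and 1641 with amisulpride. Every treated library was lower than the untreated library of its number, but amisulpride replicate 1 exceeded untreated replicates 2 and 3, so the groups overlapped. The means were 4432 ± 1270 and 2895 ± 1201 (SD, n = 3 each). The log2 fold change was -0.67 ± 0.35 (SE, 95% interval -1.45 to 0.10), with a p of 0.0830 and an adjusted p of 0.524 from limma. Within replicate numbers the log2 differences were -0.55, -0.35 and -1.12, and with the number as a block limma gave a p of 0.0277 and an adjusted p of 0.264. Without amisulpride replicate 3, the library with the lowest Pdpn value, the log2 fold change was -0.31. The study sorted both lining and sublining SFs as podoplanin-positive, so Pdpn does not mark the lining alone. A single gene of the lining, named after its values were seen, is given beside it. Prg4, which encodes lubricin of the lining layer, had 915, 859 and 733 normalised counts untreated and 426, 304 and 653 with amisulpride, without overlap (log2 fold change -0.92 ± 0.29, SE). Its adjusted p from limma was 0.251, 0.105 with the block and 0.0424 without amisulpride replicate 3. The groups did not overlap for 2 of the 14 fibroblast markers, near the 16.5% of all genes. A change of the lining as a whole was not tested.

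The podoplanin and ERM partners numbered 12, of which 11 were tested, 1 passed the study thresholds upward and 0 downward, 7 lay above and 4 below 0, and the median log2 fold change was 0.02. The gene that passed was Ezr, which encodes ezrin, with 42, 30 and 23 normalised counts untreated and 94, 52 and 66 with amisulpride. Its log2 fold change was 1.13 ± 0.35 (SE), with an adjusted p of 0.241 from limma. Every treated library exceeded every untreated one, but the log2 fold change was 0.91 without amisulpride replicate 1 and 0.93 without untreated replicate 3, under the study's threshold. Of its relatives, Msn (moesin), named after its values were seen, was lower without overlap, with 1518, 1565 and 1675 untreated and 1304, 1020 and 1188 with amisulpride (log2 fold change -0.44 ± 0.23, SE, adjusted p = 0.523). Rdx (radixin) had a log2 fold change of 0.10 ± 0.31 (SE) and Cd44, a hyaluronan receptor that associates with podoplanin, one of -0.31 ± 0.26 (SE). Lgals8, a galectin that binds podoplanin and was also named after its values were seen, had 126, 191 and 210 untreated and 274, 292 and 249 with amisulpride (log2 fold change 0.66 ± 0.27, SE, adjusted p = 0.391). Clec1b, the podoplanin receptor of platelets, was at 0 in all 6 libraries.

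Integrins and focal adhesion components, through which fibroblasts hold to matrix, were described as the counterpart of cell to cell adhesion. Of 15 fibroblast integrins, 11 were tested and 0 passed the study thresholds in either direction, with 4 above and 7 below 0 and a median log2 fold change of -0.51. The count was 2 lower without amisulpride replicate 1 (Itga5 and Itga7), and 1 lower (Itgb3) without amisulpride replicate 3, without untreated replicate 2, with array weights and at the same total per library. Itgb1, the β chain that most matrix integrins share, had 1040, 2405 and 2512 normalised counts untreated and 1752, 1649 and 5256 with amisulpride (log2 fold change 0.42 ± 0.47, SE), with the highest value in amisulpride replicate 3. Itga5, the fibronectin receptor chain, had 152, 75 and 65 untreated and 89, 62 and 30 with amisulpride (log2 fold change -0.71 ± 0.44, SE, adjusted p = 0.599 from limma). All 18 focal adhesion components were tested, 0 passed in either direction, 6 lay above and 12 below 0, and the median was -0.09.

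Several of the 8 molecules are cut from the cell surface by metalloproteinases, ICAM1, VCAM1 and ALCAM by ADAM17 among them. All 10 sheddases and related genes were tested, 0 passed the study thresholds in either direction, and the median log2 fold change was -0.22. Timp3 passed upward without amisulpride replicate 3, without untreated replicate 2, with array weights and with scaling by median ratios, and Adam19 passed downward without amisulpride replicate 3, without untreated replicate 1 and with array weights. Adam17 had 821, 750 and 846 normalised counts untreated and 787, 751 and 446 with amisulpride (log2 fold change -0.33 ± 0.27, SE), and Adam10 had a log2 fold change of -0.11 ± 0.24 (SE). Timp3, an inhibitor of ADAM17 named after its values were seen, came closest to the threshold. It had 2464, 3313 and 2047 normalised counts untreated and 5848, 5485 and 4105 with amisulpride, without overlap (log2 fold change 0.99 ± 0.28, SE, adjusted p = 0.197 from limma). Adam19, also named after its values were seen, had 58, 74 and 103 untreated and 37, 37 and 47 with amisulpride (log2 fold change -0.91 ± 0.32, SE, adjusted p = 0.291). Over all 9 lists, 108 of 155 genes were tested, limma gave 0 with an adjusted p under 0.05 in the filtered table, with or without the block, and 9 with an unadjusted p under 0.05 (10.9% of all genes), and the groups did not overlap for 14 (13.0%, against 16.5% of all genes).

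**Figure D3:**
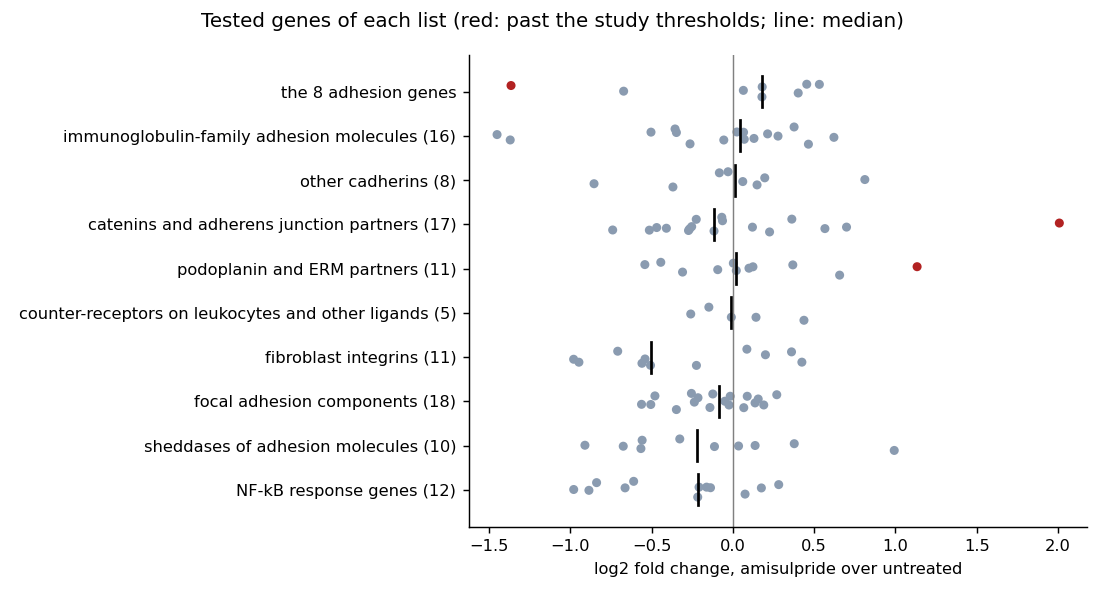
Log2 fold change of amisulpride over untreated (horizontal axis) for each tested gene of the 8 adhesion genes and of the 9 lists, with the number of tested genes in parentheses, black lines at the medians and a grey line at the median of all genes tested. Red points passed the study thresholds, which are Mcam to the left and Arvcf and Ezr to the right. The medians lie between -0.51 for the fibroblast integrins and 0.18 for the 8 adhesion genes.

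The 8 genes did not share a pattern over the libraries. Amisulpride replicate 3 was the highest library for Alcam and Ncam1 and the lowest for Vcam1 and Pdpn. The distance between profiles was taken as the root mean square difference of log2 values, centered on each gene's mean, over the 6 libraries. Cdh2 and Alcam were the closest of the 8 at 0.291, followed by Icam1 and Vcam1 at 0.391 and Vcam1 and Pdpn at 0.491, and Icam1 and Ncam1 were the farthest apart at 1.30. Among 8061 genes with a mean of at least 50 normalised counts, the profile nearest to Mcam was that of Plk1 at 0.194. Plk1, a mitotic kinase, had 86, 118 and 129 normalised counts untreated and 54, 44 and 54 with amisulpride.

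The nearest profiles of the other genes were Vegfd (0.184) and C1rb (0.192) for Icam1, Slco3a1 (0.122) and Rcan1 (0.152) for Vcam1, and Eif2s3x (0.167) and Rpl36 (0.219) for Alcam. For the cadherins they were Wasl (0.0522) and Idh3b (0.0548) for Cdh11 and Mrps15 (0.115) and Cdkn2aip (0.120) for Cdh2. For Ncam1 they were Tln1 (0.141) and Anxa6 (0.178), and for Pdpn Ndufa3 (0.0998) and Gm27029 (0.102). These distances compare 6 values that share libraries and describe likeness only.

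A 3′ end library counts reads near the ends of transcripts, and the values sum over all ends of a gene. In the GENCODE M21 annotation (build GRCm38), whose gene spans equal those of the deposited table for all 8 genes, Icam1 and Cdh11 have 1 protein-coding transcript each. Mcam has 4 such transcripts with 3 ends over 100 bases apart, spread over 5658 bases, and Ncam1 has 6 with 5 ends over 29140 bases. Alcam has 5 transcripts with 5 ends over 56268 bases, Vcam1 3 with 3 ends over 14669 bases, Pdpn 2 with 2 ends over 915 bases and Cdh2 2 with 2 ends over 146 bases. Isoforms cannot be told apart in these values. Annotated antisense and other genes overlap 6 of the 8, and all were at 0 except Gm11149 opposite Ncam1, which had 1 normalised count in amisulpride replicate 1.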

How the data were processed

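RNA of hTNFtg SFs was sequenced with a 3′ kit (QuantSeq) on an Ion Proton. According to the study's methods, the authors aligned reads to mm10 with TopHat2 and iGenomes annotation, remapped unaligned reads with Bowtie2, counted per gene with GenomicRanges and normalised and tested with DESeq through metaseqr. Versions are not given in the sources used here. The deposited values used here are a score, whole numbers taken here to be each library's read counts scaled with a single factor (normalised counts). A further 12 columns of values per library and the authors' fold changes and p-values were not used. The depth in reads and the level of 3 reads (2.50 to 5.37 normalised counts) were estimated from the spacing of low values, with an error of at most 0.001 normalised counts per read on simulated data, and cover counting error only. The simulations held no step as close to 1 as that of untreated replicate 1 (0.997 normalised counts per read). Their error therefore does not cover that library.

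Samples were grouped by their labels. Genes with at least 10 normalised counts in at least 3 of 6 libraries were tested on log2(value + 1) with limma 3.58.1 (R 4.3.3, eBayes with a variance trend, two-sided, Benjamini-Hochberg over all genes tested), after the script was tested on simulated data. Fold changes are on this scale, which understates those of low genes. The labels number the replicates 1 to 3 in both groups without saying what a number shares. Deviations from the group means correlated between libraries of the same number (r = 0.229, 0.240 and 0.201 across genes). Deviations sum to 0 within a group, so the negative values between the others (-0.149 to -0.078) are no separate evidence. The numbers were taken as pairs and a fit with the number as a block was run beside the main fit. The main fit has no block and gives the SEs and intervals. Other alternatives were array weights, scaling, the filter, the pseudocount, the variance trend and leaving out each library. The 8 genes, the lists and the motifs were chosen with earlier results of these data known. Genes named were the 8, up to 3 genes per list by lowest p past the study thresholds, the 2 nearest profiles of each of the 8 and the first 2 genes of each marker list. Others are common members of a list or are marked as chosen after their values were seen. Of the genes this rule names, 2 are not reported here.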

Additional observations from a re-analysis of the deposited data

How the results depend on the processing

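The number of the 8 genes past the study thresholds stayed at 1 in all alternatives. The number with an adjusted p under 0.05 rose from 0 to 1 (Mcam) with array weights, with the replicate block and without amisulpride replicate 3, and leaving out 1 library gave 0 to 1. Mcam kept its direction throughout, with log2 fold changes from -1.50 to -1.15 and adjusted p from 0.0188 to 0.391. Ncam1 (0.06) reversed to -0.36 with array weights and to -0.01 when libraries were scaled to the same total, and covered -0.55 to 0.38 when 1 library was left out. In the same way Vcam1 (0.18) covered -0.10 to 0.65, Cdh2 (0.18) -0.08 to 0.57 and Cdh11 (0.40) -0.02 to 0.62. Icam1 (0.03 to 0.93), Alcam (0.08 to 0.95) and Pdpn (-0.96 to -0.31) kept their sign. Among all genes tested, 36 had an adjusted p under 0.05, against 263 with the block, 195 with array weights, 66 after quantile normalisation, 57 with a pseudocount of 5 or without a filter, and 0 to 120 when 1 library was left out (0 without untreated replicate 2 or 3, 1 without untreated replicate 1, 17, 6 and 120 without amisulpride replicates 1, 2 and 3). Among the pathway lists the block changed 1 call, that of F11r, an immunoglobulin-family molecule, which then passed the study thresholds downward. The counts of the lists moved by at most 2 when 1 library was left out. Without a filter they moved by 3 for the other cadherins and by 1 for the counter-receptors (Spn). Scaling to the same total moved the median of all genes to -0.07. There were 3 libraries per group, at approximately 2520000 to 4710000 reads. In the fit without the block, the 7 genes other than Mcam had intervals that include 0 and also changes of over 0.9 in one direction. With the block, Pdpn had a p of 0.0277 and an adjusted p of 0.264 from limma. The causes of the reversals were not tested.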
